A study of Homo sapiens with 6 samples.

Results

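The primary cilium genes described here are 45 genes for the antenna-like organelle of the cell surface and for the intraflagellar transport (IFT) trains that build it, of 17687 named genes on the array. They were listed by symbol with treatment differences of the same arrays in view, and each is read by its brightest probe set (each of the 45 has 1). By role they are 17 IFT genes, 4 motor genes, 10 genes of the Bardet-Biedl syndrome (BBS) group, 11 transition zone genes and 3 others (ARL3, CEP164 and INVS). Because the levels and the treated minus control differences were used to choose them, the erlotinib and EGF values below are descriptions and support no test.

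The study put RNA of 3 lung cancer lines on 6 Clarion S arrays, so that every line has 1 control and 1 treated array. PC-9 and HCC827 carry a mutant EGFR, the epidermal growth factor receptor, and each was treated for 6 hours with 0.01 µM erlotinib, an inhibitor of the EGFR kinase. H322 has the wild-type receptor and was treated for 6 hours with EGF, a ligand of that receptor, whose dose the labels state as 100 µg/ml, which may be a slip for ng/ml and could not be checked here. Tumour necrosis factor alpha was in the medium per the labels, which do not say whether the controls received it, so its effect and that of the drug or ligand cannot be told apart if they did not. No array has a replicate within its line, so each line stands for itself, and PC-9 and HCC827 serve as the 2 replicates for erlotinib.

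A primary cilium is a single, non-motile extension grown from the mother centriole in resting cells. Kinesin-2 carries IFT-B trains from base to tip and dynein-2 carries IFT-A trains back. The BBSome, a coat assembled with the help of chaperonin-like BBS proteins, moves membrane proteins along the trains, and the transition zone at the base acts as a gate between cilium and cell. In lung, the airway surface bears multiciliated cells with motile cilia, which use the same transport proteins together with axonemal dyneins and tektins, whereas cells in culture can grow a primary cilium when they stop dividing and resorb it when they re-enter the cycle. These arrays measured RNA, and no cilium was counted.

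Levels are log2(intensity + 1), and pairs of levels are given with the control first. A signal is called above background when it exceeds the 95th percentile of its own array's 612 negative control probe sets, which lay between 6.92 and 7.47. That percentile was lower on the treated array in HCC827 and H322. The median difference of the negative controls themselves was -0.01 in PC-9, -0.09 in HCC827 and 0.00 in H322. Of all genes, 48.8% to 52.4% lay above background on an array. The response controls DUSP6 and FOSL1, targets of the MAP kinase pathway, passed limma's adjusted threshold with mean erlotinib differences of -4.21 and -5.13. DUSP6 was under background with erlotinib in PC-9, so its value is as measured, and it was at least 9.57-fold lower there. EGFR, listed with them, had a mean difference of -0.23 and did not pass.

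The cilium genes were mostly measured. 26 of 45 (57.8%) lay above background on all 6 arrays, against 41.9% of all genes, 14 on some arrays, and 5 on none (11.1%, against 41.4% of all genes). Those 5 were the IFT-A genes IFT43 and WDR35, the dynein-2 heavy chain DYNC2H1, the BBSome gene BBS5 and the transition zone gene CC2D2A, and no fold is given for them. By role, 9 of 17 IFT genes, 3 of 4 motor genes, 6 of 10 BBS genes, 6 of 11 transition zone genes and 2 of the 3 others were above background on every array. Markers of multiciliated cells were mostly dim: 12 of 16 were above background on none of the arrays, among them FOXJ1, the master regulator of motile cilia, and 1 (CAPS) on all 6, and the mean level of the list lay between 4.66 and 5.17. The axonemal dynein gene DNAH5 was above background on all PC-9 and HCC827 arrays, from 7.89 to 10.51. HYDIN was so on both PC-9 arrays, at 8.82 and 8.21, and CIMAP3 in HCC827 with erlotinib only. The 5 epithelial markers were above background on all 6 arrays, 3 of 4 measured leukocyte markers and 4 of 7 fibroblast and endothelial markers on none. The other leukocyte marker, CD68, was bright in the PC-9 and HCC827 controls, at 11.18 and 13.22. COL1A2 was above background on 5 arrays, CDH5 on both PC-9 arrays and VWF in HCC827 with erlotinib only. VWF read 7.14 in the HCC827 control and 7.28 with erlotinib, where the limits were 7.27 and 6.92. In such bulk RNA, fewer cells with a transcript and less of it per cell cannot be told apart.

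**Figure D1:**
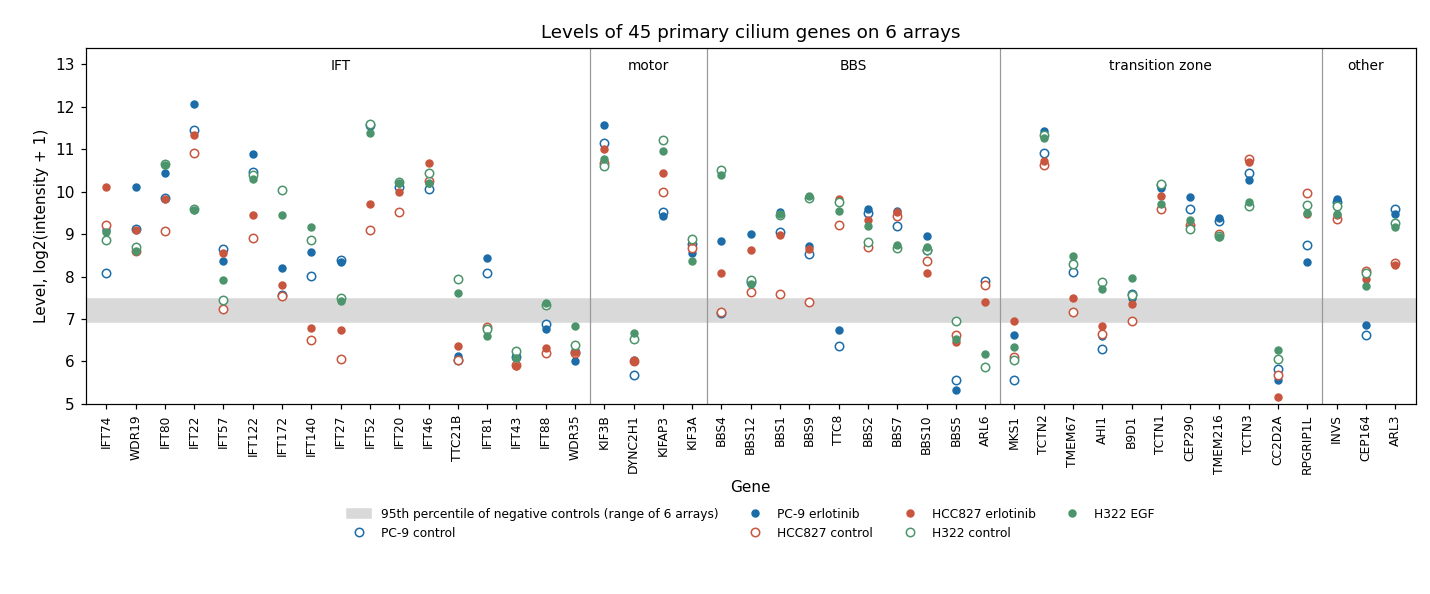
Level of each of the 45 cilium genes on the 6 arrays, as log2(intensity + 1), by role. Open points are control arrays, filled points treated arrays, and the grey band spans the background limits of the 6 arrays, 6.92 to 7.47; IFT43, WDR35, DYNC2H1, BBS5 and CC2D2A exceed the limit on no array.

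With erlotinib, 24 of the 45 genes (53.3%) were higher by any amount in both EGFR-mutant lines, against 30% of all genes, and 6 (13.3%) were lower in both, against 29.6% of all genes. The other 15 differed in sign between the lines. Counts by sign, here and below, are as measured, with dim signals included. Of the 24, DYNC2H1, IFT140, TTC8, TTC21B, MKS1 and AHI1 were under background on both arrays of a mutant line. Of the 6, BBS5 and CC2D2A were. Of all genes 41.4% were above background on no array, so genes with a mean level above the mean limit are a closer comparison. There 20 of 34 cilium genes were higher in both lines, against 36.9% of 9017 genes, and 3 lower in both, against 30.3%. Among genes above background on all 6 arrays the highest mean differences were those of BBS12, IFT74, BBS1, WDR19 and BBS9, and the lowest was that of RPGRIP1L. The median difference of the 45 was 0.18 in PC-9 and 0.31 in HCC827, where the medians of all genes were 0.01 and -0.00. Since the list was chosen on these contrasts, nothing is read from these shares.

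No cilium gene passed limma at an adjusted p of 0.05, fitted over all genes on the 4 arrays with the line as a block. The count was 0 of 45 in either direction, against 0.565% of all genes higher and 0.916% lower, and the lowest adjusted p was 0.0779, for BBS4. At an unadjusted p under 0.05, 10 of the 45 were higher (IFT22, IFT74, IFT80, IFT122, WDR19, BBS1, BBS4, BBS9, BBS12 and MKS1) and 0 were lower, against 7.53% and 6.83% of all genes. Of these 10, MKS1 was under background on both PC-9 arrays. Among genes with a mean level above the mean limit, 9 of 34 cilium genes were higher at that p, against 12.1% of 9017 genes. At least 1.5-fold higher in both lines were 3 (IFT74, BBS4 and BBS12; 6.67%, against 1.89% of all genes), and 0 were at least 1.5-fold lower in both, against 1.94%. With quantile normalization IFT74, BBS4 and BBS12 passed the adjusted threshold, with arrays centred on their medians only BBS4 did, and with the background limit as a floor IFT74, BBS1, BBS4, BBS12 and WDR19 did; in the other 5 alternative fits none did.

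**Figure D2:**
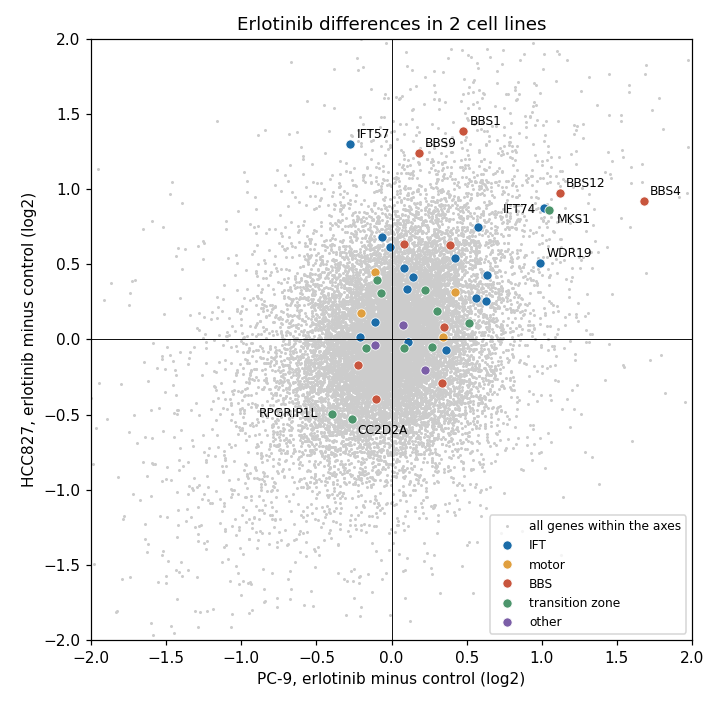
Erlotinib minus control on the log2 scale in PC-9 (x axis) and HCC827 (y axis), for the cilium genes in colour by role and all other genes within the axes in grey. 24 of the 45 genes lie in the upper right and 6 in the lower left, with dim signals included. Values are as measured, and IFT57 stands at -0.27 in PC-9 and at 1.30 in HCC827, where its control was under background.

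Among the IFT genes, 10 of 17 were higher in both lines and 0 lower in both, with medians of 0.14 in PC-9 and 0.43 in HCC827. The highest mean difference among them was that of IFT74, which with IFT81 forms the tubulin-binding pair of the IFT-B core. IFT74 stood at 8.08 in the PC-9 control and 9.09 with erlotinib, and at 9.23 and 10.10 in HCC827. With erlotinib IFT74 was thus higher in both lines, by 2.02-fold in PC-9 and by 1.83-fold in HCC827, a mean log2 difference of 0.94 ± 0.22 (limma's moderated SE, n = 2 lines). Its partner IFT81 was measurable in PC-9 only. It read 8.08 and 8.44 in PC-9 and was below background on both HCC827 arrays, at 6.80 and 6.74. The 2 genes thus gave log2 differences of 1.01 and 0.36 in PC-9.

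Of the 7 IFT-B core genes 3 were higher in both lines, IFT22, IFT46 and IFT74. IFT22, a small GTPase-like subunit, was at 11.45 and 12.08 in PC-9 and 10.91 and 11.34 for HCC827, a mean difference of 0.53 ± 0.17 (SE, n = 2 lines). IFT52, which links parts of the core, was 11.57 and 11.56 in PC-9 and 9.11 and 9.72 for HCC827. The PC-9 arrays of IFT52 were 0.01 apart, and the HCC827 arrays 0.61. IFT46 gave 10.08 and 10.22 in PC-9 and 10.25 and 10.67 for HCC827. IFT27, a Rab-like subunit that helps the BBSome leave the cilium, was 8.40 and 8.33 in PC-9, and in HCC827 it was below background on both arrays, at 6.07 and 6.75. IFT88, the gene of the classical polycystic Tg737 mouse, was above background on 1 array only, H322 with EGF, at 7.38. Its H322 control read 7.34, and the limit was 7.47 on that control and 7.13 with EGF.

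The peripheral IFT-B genes, which bind motors and cargo, had a median difference of 0.33 in PC-9 and 0.61 in HCC827, and 3 of 4 were higher in both lines. IFT80 was at 9.86 in the PC-9 control and 10.44 with erlotinib, and at 9.09 and 9.84 in HCC827. This made it higher by 1.49-fold in PC-9 and by 1.68-fold in HCC827, with a mean difference of 0.66 ± 0.20 (SE, n = 2 lines). IFT172 was 7.58 and 8.21 in PC-9 and 7.54 and 7.80 for HCC827. IFT20, which also sits at the Golgi, was 10.12 and 10.20 in PC-9 and 9.52 and 9.99 for HCC827. The exception was IFT57, the subunit that contacts kinesin-2. IFT57 was 1.21-fold lower in PC-9, at 8.65 and 8.38, and at least 2.42-fold higher in HCC827, from 7.25, under background, to 8.55. With 1 array a condition in each line, the difference between the lines was not tested.

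IFT-A genes carry the return traffic and the entry of receptors into the cilium. As measured, the median difference was 0.27 in PC-9 and 0.30 in HCC827. By sign, 4 of 6 were higher in both lines (IFT122, IFT140, TTC21B and WDR19). IFT43, IFT140, TTC21B and WDR35 were under background on both HCC827 arrays, so the HCC827 median rests mostly on dim signals. WDR19 was at 9.13 and 10.12 in PC-9 and 8.60 and 9.11 for HCC827, which is 1.99-fold and 1.42-fold higher, a mean of 0.75 ± 0.23 (SE, n = 2 lines). IFT122 gave 10.46 and 10.88 in PC-9 and 8.91 and 9.45 for HCC827, with a mean of 0.48 ± 0.20 (SE, n = 2 lines). In each of these 2 genes both lines differed in the same direction. IFT140 was measured in PC-9 at 8.02 and 8.58 and lay under background on both HCC827 arrays. TTC21B, which encodes IFT139, was above background in H322 only.

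Of the 3 kinesin-2 genes 1 was higher in both lines. KIF3B, a kinesin-2 motor subunit, was 11.15 and 11.56 in PC-9 and 10.68 in the HCC827 control, and its erlotinib differences were 0.42 and 0.32. Its partner KIF3A was 8.76 and 8.56 in PC-9 and 8.67 and 8.84 for HCC827, and the adaptor KIFAP3 was 9.53 and 9.42 in PC-9 and 9.99 and 10.43 for HCC827. For both partners the lines differed in sign.

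The BBS genes had the highest medians of the 3 larger groups, 0.34 in PC-9 and 0.63 in HCC827, and 7 of 10 were higher in both lines. Of the 7 BBSome genes this held for 6, with BBS5, which was under background throughout, as the exception. BBS4, which recruits the complex to centriolar satellites, had the lowest adjusted p of the 45. BBS4 was under background in both mutant controls, at 7.15 in PC-9 and 7.17 in HCC827, and above it with erlotinib, at 8.83 and 8.09. These are at least 2.81-fold and at least 1.77-fold higher. BBS1, the subunit that binds the GTPase ARL6, was 9.05 and 9.52 in PC-9 and 7.60 and 8.98 for HCC827. It was thus 1.39-fold and 2.61-fold higher, a mean of 0.93 ± 0.28 (SE, n = 2 lines).

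BBS9, a scaffold of the BBSome, was 8.54 and 8.72 in PC-9 and 7.41 and 8.65 for HCC827, or 1.14-fold and 2.36-fold higher. As for BBS1, the larger difference was in HCC827, whose control was the lowest of the 3 lines. BBS2 gave 9.51 and 9.59 in PC-9 and 8.69 and 9.32 for HCC827, and BBS7, in the same core of the complex, 9.19 and 9.54 and then 9.44 and 9.52. TTC8, also called BBS8, was under background on both PC-9 arrays and read 9.21 and 9.83 in HCC827.

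The chaperonin-like genes, which fold and assemble the BBSome, parted. BBS12 stood at 7.88 and 9.0 in PC-9 and 7.64 and 8.62 for HCC827, which is 2.17-fold and 1.97-fold higher, with a mean of 1.05 ± 0.24 (SE, n = 2 lines). Among genes above background on all 6 arrays it had the highest mean difference of the list. BBS10, by contrast, was 8.63 and 8.96 in PC-9 and 8.37 and 8.08 for HCC827. BBS10 was therefore higher by 0.34 in the first line and lower by 0.29 in the second, and that difference was not tested. ARL6, the GTPase that brings the BBSome to membranes, was lower in both lines, at 7.90 and 7.80 in PC-9 and 7.79 and 7.39 for HCC827.

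Of the transition zone genes, 8 of 11 had a mean difference above 0 and 3 below. The PC-9 median was 0.08 and the HCC827 median 0.11. By sign, 4 of 11 were higher in both lines (TMEM67, TCTN2, MKS1 and AHI1) and 3 lower in both (TCTN3, CC2D2A and RPGRIP1L). AHI1 and CC2D2A were under background on all mutant-line arrays, and MKS1 on all but HCC827 with erlotinib. The median of the mean differences was 0.12, and it turned to -0.01 with the background limit as a floor. That floor moved the median of all genes from -0.00 to -0.17 and that of the 45 cilium genes from 0.25 to 0.11. The IFT and BBS medians of the mean differences stayed between 0.28 and 0.33 and between 0.34 and 0.43 under the scalings tried.

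RPGRIP1L, which anchors the transition zone, was 8.75 and 8.35 in PC-9 and 9.96 and 9.47 for HCC827. It was 1.32-fold and 1.41-fold lower, with a mean of -0.45 ± 0.22 (SE, n = 2 lines). It was the lowest of the genes above background on all 6 arrays, and TCTN3, ARL3, KIF3A and TMEM216 followed it. TCTN3, a tectonic of the transition zone membrane, was 10.44 and 10.27 in PC-9 and 10.76 and 10.71 for HCC827. ARL3, which releases lipid-modified cargo in the cilium, was 9.58 and 9.47 and then 8.32 and 8.28. For these genes the differences were small, and TMEM216, at 9.30 and 9.38 in PC-9 and 9.01 and 8.95 for HCC827, had a mean of 0.01 that turned to -0.01 and -0.02 with arrays centred or quantile normalized.

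MKS1, a founding Meckel syndrome gene of the same gate, was above background on 1 array only, HCC827 with erlotinib, at 6.96, so no difference is given. TCTN2 was 10.92 and 11.43 in PC-9 and 10.63 and 10.74 for HCC827, and TCTN1 was 10.17 and 10.10 and then 9.60 and 9.91. CEP290, whose protein bridges the microtubules and membrane of the zone, was 9.60 and 9.87 in PC-9 and 9.22 and 9.17 for HCC827. TMEM67, the receptor-like Meckelin, was above background on 5 arrays, as was the B9-domain gene B9D1, and AHI1 was so in H322 only. Of the remaining genes, INVS, of the inversin compartment, was 9.76 and 9.84 in PC-9 and 9.35 and 9.45 for HCC827, and CEP164, of the distal appendages, was measured in HCC827 but not above background in PC-9.

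**Figure D3:**
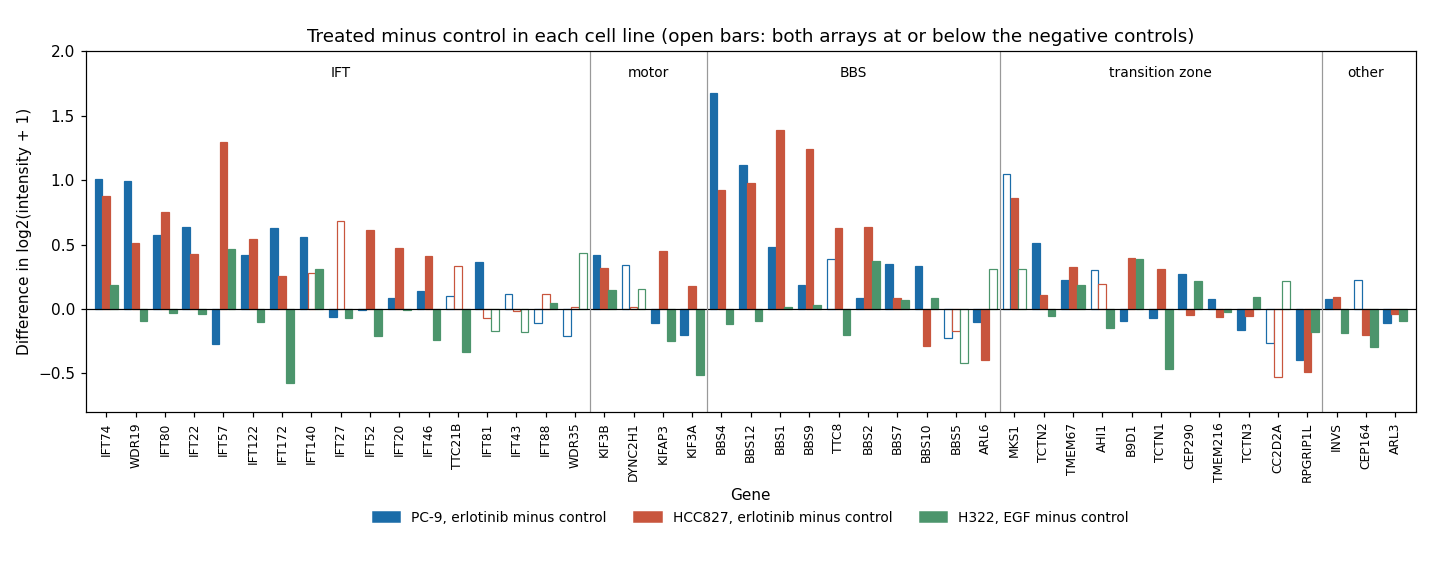
Treated minus control on the log2 scale for each cilium gene, by role, with erlotinib in PC-9 and HCC827 and EGF in H322. Each bar is 1 pair of arrays, with no replicate within a line, and open bars have both arrays at or below the background limit; values against a dim array are as measured, not bounds, and no EGF difference goes past 1.5-fold.

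Promoter sequence gives a feature of these genes that the list did not use. RFX factors bind the X-box of ciliary promoters, and ETS factors, some of which respond to MAP kinase signalling, bind sites with a GGAA core. The X-box core GTTGCC was searched on both strands in RefSeq windows (GRCh38.p14) from 250 bases before to 50 after the transcription start, which were matched for 40 of the 45 genes (not for IFT22, BBS9, WDR35, TMEM67 and TCTN2). It was in 16 of 40 (40.0%), against 1806 of 14250 genes on the array with a window (12.7%). Between 60 bases before and 10 after the start it was in 10 (25%), against 3.8% of all. The ETS site CCGGAAGT, also on both strands, was in 5 of 40 (12.5%), against 6.2%, and in that nearer stretch in 4 (10%), against 4.2%. A match is a description of these letters, not of a bound site.

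Below are the 70 bases from 60 before to 10 after the start for genes the erlotinib values turn on, with matches in capitals. BBS1 (chr11:66510575-66510644, plus strand) and IFT122 (chr3:129440164-129440233, plus strand) were higher in both lines and hold the X-box core, as does MKS1 (chr17:58219246-58219315, minus strand), which was mostly under background. ARL6 (chr3:97764698-97764767, plus strand) holds it too and was lower in both. BBS4 (chr15:72686147-72686216, plus strand) holds the ETS site on the other strand. BBS12 (chr4:122732644-122732713, plus strand) and WDR19 (chr4:39182469-39182538, plus strand), both higher, hold neither in this stretch.
BBS1: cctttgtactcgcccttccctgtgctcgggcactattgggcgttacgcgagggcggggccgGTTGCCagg
IFT122: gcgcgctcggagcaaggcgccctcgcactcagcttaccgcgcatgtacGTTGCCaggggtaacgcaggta
MKS1: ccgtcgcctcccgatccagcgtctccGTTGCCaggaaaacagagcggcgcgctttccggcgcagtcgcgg
ARL6: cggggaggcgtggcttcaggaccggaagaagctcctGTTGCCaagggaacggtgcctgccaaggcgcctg
BBS4: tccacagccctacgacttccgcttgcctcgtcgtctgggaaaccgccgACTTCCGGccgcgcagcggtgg
BBS12: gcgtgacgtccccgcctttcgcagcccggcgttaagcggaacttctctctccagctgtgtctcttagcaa
WDR19: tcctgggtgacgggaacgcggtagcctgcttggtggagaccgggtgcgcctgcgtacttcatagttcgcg

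The median of the mean erlotinib differences was 0.16 over the 16 genes with the X-box core and 0.23 over the 24 without. Both groups hold genes under background on both arrays of a mutant line. With the core these include IFT27, IFT81, IFT88, BBS5, TTC8, DYNC2H1, CEP164 and MKS1, and without it IFT43, IFT140, TTC21B, CC2D2A and AHI1. The list was also chosen on these differences, so the medians are descriptions, and a part of the core in the differences was not tested. Of the RFX factors listed, RFX1, RFX2 and RFX4 were under background on all 6 arrays. RFX3 was under background on both PC-9 arrays, at least 1.21-fold higher with erlotinib in HCC827, from a control under background, and 1.69-fold lower with EGF in H322.

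Cilium genes outside the 45 were read from further lists, and of their 63 measured genes 0 passed limma's adjusted threshold in either direction, while 12 were higher and 1 lower at an unadjusted p under 0.05. The shares of all genes were those given for the 45: 0.565% and 0.916% adjusted, 7.53% and 6.83% unadjusted. Of 11 further IFT and dynein-2 genes, 8 were higher in both lines and 1 lower in both, with a median of the mean differences of 0.24 that was 0.03 with the floor. CLUAP1, an IFT-B subunit, was higher in both lines, by at least 1.58-fold (PC-9) and at least 1.44-fold (HCC827), with both controls under background. The dynein-2 light intermediate chain DYNC2LI1 differed by 0.40 in each line. Of 3 further BBS genes, LZTFL1, a regulator of BBSome traffic, was 11.35 and 12.13 in PC-9 and 10.87 and 11.66 for HCC827. Its differences in the 2 lines, 0.78 and 0.79, lay 0.01 apart.

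The 9 measured further transition zone genes had a median of -0.15, with 3 higher in both lines and 5 lower in both. TMEM138 differed by -0.38 and -0.78 and ANKS6 by -0.64 and -0.24 in PC-9 and HCC827. The 8 measured basal body and appendage genes had a median of 0.32, and 5 were higher in both lines. C2CD3, needed for centriole appendages, differed by 0.74 and 0.87 and OFD1, a centriolar satellite gene, by 0.59 and 0.97. The median of the basal body list thus lay above that of all genes, also with the floor, at 0.26. That of the further transition zone list lay below it, except with the floor, where both were -0.17. Genes dim on all mutant-line arrays take that value from the limits alone.

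Of 17 measured ciliary membrane and Hedgehog genes, 11 were higher in both lines and 3 lower in both, with a median of 0.20 that turned to -0.12 with the floor. TULP3, the adaptor that brings receptors to IFT-A, differed by 0.47 and 1.08. The Hedgehog genes SMO, GLI1, GLI2 and GLI3, whose products act in the cilium, were under background on all 6 arrays, as were EVC2 and ADCY3. Other Hedgehog genes were measured, named here after their values were seen. The receptor PTCH1 was 2.06-fold higher in PC-9, at 10.70 and 11.74, under background on both HCC827 arrays, and 1.49-fold lower with EGF, from 9.49. The GLI inhibitor SUFU was 1.58-fold higher in PC-9 and at least 1.05-fold in HCC827. In the same list, EVC differed by 0.61 in PC-9 and 0.03 in HCC827, and RAB23 by -0.15 and -0.09. GPR161, above background in PC-9 only, differed by -0.0046 there. The 7 cilium disassembly genes had a median of 0.45 (0.15 with the floor), with 5 higher in both lines. NEK2, a centrosomal kinase, differed by 0.77 and 0.79, the mitotic kinase AURKA by 0.65 and 0.44, and the deacetylase HDAC6 by 0.31 and 0.60, while NEDD9 was under background throughout. The list for resorbing the cilium thus had a median above 0 like the IFT and BBS groups, and its part in their differences was not tested.

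With EGF in H322, 19 of the 45 genes were higher and 26 lower (51.1% of all genes were higher), the median was -0.04, and none reached 1.5-fold in either direction, against 1.15% of all genes higher and 0.842% lower. With 1 array a condition there is no test. Of the 24 genes higher with erlotinib in both mutant lines, 14 were lower with EGF and 10 higher. That split is near that of the whole list (26 lower, 19 higher), and nothing is read from it.

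The lowest with EGF was IFT172, at 10.04 in the control and 9.46 with EGF, or 1.49-fold lower. KIF3A was 8.89 and 8.38, and TCTN1 10.19 and 9.72. The highest was IFT57, at 7.44, under background, and 7.91, at least 1.36-fold higher. B9D1 was 7.58 and 7.96 and BBS2 8.81 and 9.18. Of the genes named for erlotinib, BBS4 was 10.51 and 10.39, BBS12 7.92 and 7.82, IFT74 8.87 and 9.06, BBS1 9.45 and 9.47, WDR19 8.70 and 8.60, BBS9 9.86 and 9.89, and RPGRIP1L 9.68 and 9.50.

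**Figure D4:**
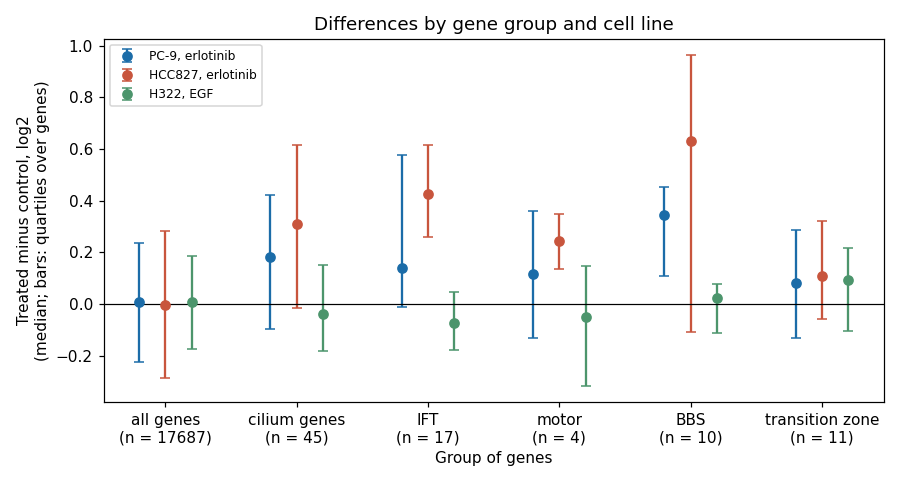
Median treated minus control difference (log2) of all genes, of the 45 cilium genes and of the IFT, motor, BBS and transition zone genes, in PC-9, HCC827 and H322. Whiskers give the interquartile range over genes. IFT and BBS medians lie above that of all genes in both erlotinib comparisons. The transition zone median in HCC827 is 0.11 as drawn and was below 0 with the background limit as a floor, which is not drawn.

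Between untreated lines, the HCC827 control was the lowest of the 3 for 25 of the 45 genes (55.6%), against 29.9% of all genes, and for 12 of the 17 IFT genes. Among genes with a mean level above the mean limit it was the lowest for 61.8% of 34 cilium genes and 35% of 9017 genes. With the floor it was the lowest for 71.1% of the 45 and 66.0% of all genes. That floor is each array's own limit. Among the controls the limit was 7.34 in PC-9, 7.27 in HCC827 and 7.47 in H322. A gene dim on all 3 controls thus counts as lowest in HCC827, so these floor shares do not check the baseline difference. The H322 control was the highest for 25, the PC-9 control for 14 and the HCC827 control for 6. Of all 17687 genes these counts were 6108, 5238 and 6341. The median difference of PC-9 from HCC827 was 0.29 (all genes -0.07). That of H322 from the mean of the mutant lines was 0.31 (all genes 0.01). With the floor that H322 median was 0.16 for the 45 and for all genes. A gene dim on all 3 controls takes that value from the limits alone. The HCC827 control array also enters its erlotinib difference, so these values and the HCC827 differences above are not independent.

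Wide ranges over the 3 controls were those of TTC8, BBS4, IFT172, IFT52 and BBS9. BBS4 spanned at least 3.23, with dim arrays at their limit, from under background in both mutant lines to 10.51 in H322. TTC8 spanned at least 2.41, from under background in PC-9 through 9.21 in HCC827 to 9.75 in H322. IFT172 was 7.58 in PC-9 and 7.54 in HCC827 against 10.04 in H322, a range of 2.49. IFT52 was instead low in 1 mutant line only, at 9.11 in HCC827 against 11.57 in PC-9 and 11.59 in H322. BBS9 was 8.54, 7.41 and 9.86, in the order PC-9, HCC827 and H322. In the other direction, ARL6 was above background in PC-9 and HCC827 and below it on both H322 arrays, at 5.87 and 6.18. The brightest probe sets, TCTN2, KIF3B and IFT22, had control levels from 10.63 to 11.33, from 10.61 to 11.15 and from 9.60 to 11.45. With 1 control array a line, none of these differences has a replicate check.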

How the data were processed

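Total RNA was measured on 6 Clarion S arrays. The deposited values are linear intensity values per probe set. The submitters' processing notes name Affymetrix Expression Console as the authors' software. Version, summarisation and array scaling: not given in the sources used here. Median intensities lay from 148 to 157, and whether arrays were scaled to a like level is unknown; such a step would hide a change of most genes. The number of arrays limits the precision.

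From these, log2(intensity + 1) was computed for 24351 probe sets. By the platform annotation 17709 had 1 symbol, 0 several and 6642 none, which gave 17687 genes, and for 20 symbols with several probe sets the brightest was kept. A fold is given only where both arrays exceed the 95th percentile of the negative controls; with 1 below it, the dim array is set to the percentile and the fold is "at least". Erlotinib was fitted over all genes with limma 3.58.1 in R 4.3.3 (lmFit, eBayes with trend, line as block, two-sided, Benjamini-Hochberg, statmod 1.5.0). The block rests on the shared cell line: control and treated arrays correlated at 0.991 in PC-9 and 0.988 in HCC827, and the 2 controls at 0.907. The fit has 1 residual and 6.58 prior degrees of freedom, so p-values and SEs rest mostly on the spread of other genes; nothing says that cultures were separate. Scripts were tested on simulated data. Python 3.11.15 with numpy 2.4.6, pandas 2.3.3 and matplotlib 3.10.9 did the rest.

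The 45 genes, the further lists and the rules were chosen with earlier results of these data known. Named are the 5 highest and 5 lowest with erlotinib among genes above background on all 6 arrays, the 3 highest and 3 lowest with EGF, the 3 brightest, the 5 with the largest range over controls, any that pass the threshold, and up to 3 of each further list; other members are named to account for the whole list. Alternatives were the offset, centring, quantile normalization, a floor at the negative controls, averaged probe sets, a filter on dim genes, no trend, no block, and leaving out a line.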

Additional observations from a re-analysis of the deposited data

Results flagged for a closer look

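As measured, opposite directions in the 2 EGFR-mutant lines, each past 0.25 on the log2 scale, drew attention to 2 cilium genes, and the difference between the lines was not tested, since each has 1 array per condition. IFT57, the IFT-B subunit that contacts kinesin-2, differed by -0.27 with erlotinib in PC-9 and by 1.30 in HCC827, where its control lay under background. BBS10, a chaperonin-like BBS gene, differed by 0.34 in PC-9 and by -0.29 in HCC827.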

How the results depend on the processing

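The count of cilium genes past limma's adjusted threshold was 0 higher and 0 lower as reported. The higher count was 1 with arrays centred on the median, 3 after quantile normalization and 5 with a floor at the negative controls' percentile, where 1.28%, 2.01% and 3.01% of all genes were called higher. It was 0 in the other 5 fits, among them the fit with no replicate block for the line, which called 0 genes in all. The median mean erlotinib difference of the 45 genes was 0.25 and moved to 0.11 with that floor, while leaving out 1 line gave 0.18 to 0.31. For the transition zone genes 0.12 moved to 0.10 with centred arrays and 0.10 with quantile normalization, and reversed to -0.0062 with the floor; leaving out a line gave 0.0803 to 0.1083. In single lines the floor moved the medians of the 45 from 0.18 to 0.0760 in PC-9 and from 0.31 to 0.10 in HCC827. TMEM216 reversed from 0.0102 to -0.0142 with centring and -0.0161 with quantile normalization. The limit for a change was the SD between the 2 line medians, and 0.1 for a single line. The IFT median of 0.31 was 0.14 to 0.43 with 1 line left out and the BBS median of 0.43 was 0.34 to 0.63, both within that limit, which is wide because the lines differ; with genes of low mean level left out they were 0.46 and 0.61. The EGF median of -0.04 was -0.10 with the floor. The floor gives a gene dim on both arrays of a line the difference of their limits. That difference was below 0 in HCC827 and H322, so the floor values partly reflect the limits. The cause of the other changes was not tested. Signal over background limits the values of the 19 genes that were dim on at least 1 array.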
